A study of Mus musculus with 6 samples.

Results

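The genes described are 10 that handle zinc in the mouse: 5 importers of the ZIP family (Slc39a1, Slc39a6, Slc39a7, Slc39a8 and Slc39a10), 3 transporters of the ZnT family (Slc30a5, Slc30a6 and Slc30a9) and the metallothioneins Mt1 and Mt2. They were taken by gene symbol, and all 10 were found among the 55291 genes of the deposited count table. The libraries are of full-grown oocytes, labelled wild type (WT) or knockout (KO). The series title names Pan2, which encodes the catalytic subunit of a deadenylase that shortens mRNA poly(A) tails, as the gene under study. The labels give neither the allele nor the way it was deleted, nor age, strain or how many oocytes and females went into a library. The series text speaks of maternal deletion in zygotes and 2-cell embryos, whereas the sample titles name full-grown oocytes, which were followed here. The values below come from WT 1 and from KO 1 to KO 3.

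ZIP proteins move zinc into the cytosol, from outside the cell or out of organelles. Most ZnT proteins move it the other way, out of the cell or into vesicles and organelles. Metallothioneins are small cysteine-rich proteins that bind zinc in the cytosol, and their genes are switched on by MTF1, a zinc-sensing transcription factor that binds metal response elements. In mouse oocytes, zinc is taken up during meiotic maturation, with ZIP6 and ZIP10 (the products of Slc39a6 and Slc39a10) known as maternal importers, and is released by exocytosis after fertilization in the so-called zinc sparks. Zinc also takes part in keeping the egg arrested before fertilization.

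Mt2 was at or near 0 in these libraries, and Mt1 was low, with 18 to 24 counts per library. The sequences before the annotated starts of both are shown, with matches to the metal response element core in capitals. The core was searched as TGCACNC and TGCGCNC on both strands in the 250 bases before each start, and the letters are from RefSeq on GRCm38.p6. Both windows lie on the plus strand of chromosome 8, at chr8:94172368-94172617 for Mt2 and at chr8:94178839-94179088 for Mt1.
Mt2: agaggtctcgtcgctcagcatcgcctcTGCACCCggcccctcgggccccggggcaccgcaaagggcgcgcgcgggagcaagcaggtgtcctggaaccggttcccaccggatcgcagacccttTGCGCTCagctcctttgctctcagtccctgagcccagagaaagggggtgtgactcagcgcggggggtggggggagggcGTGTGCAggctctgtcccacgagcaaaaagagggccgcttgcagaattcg
Mt1: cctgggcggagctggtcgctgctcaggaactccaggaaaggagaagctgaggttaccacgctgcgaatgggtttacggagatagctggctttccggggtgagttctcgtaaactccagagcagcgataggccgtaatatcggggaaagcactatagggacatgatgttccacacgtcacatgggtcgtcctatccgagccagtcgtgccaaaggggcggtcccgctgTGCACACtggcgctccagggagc
The Mt2 window held 3 matches, of which 1 was on the minus strand, and the Mt1 window held 1, which lay 23 to 17 bases before the start. None of them overlapped. Of 32851 such windows in the table, 21.41% held at least 1 match and 1.263% held at least 3. In GENCODE M21 both Mt2 transcripts begin after the end of its window, by 47 and 243 bases, and so do 2 of the 3 Mt1 transcripts, by 123 and 153 bases. The bases directly before those starts were therefore searched in part or not at all. Of the 10 genes, 9 had an entry in the RefSeq table, with 11 windows in all, and 4 of these windows, at Mt1, Mt2, Slc30a5 and Slc39a8, held a match. A match is a run of letters and was not tested as a binding site.

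Total counts were between 12038990 and 26770521 in WT 1 and the KO libraries. Levels are CPM, the usual depth-scaled count, after normalization with TMM factors, which correct for differences in composition, and fold changes are from edgeR's quasi-likelihood test of the 3 KO libraries against WT 1, with p-values adjusted over all 17799 genes tested and a threshold of 0.05. With 1 WT library the spread came from the KO libraries, and the WT library is assumed to vary like them. The labels do not say whether libraries came from separate females, so p-values measure only the spread between libraries, which may be technical. Log2 CPM correlated across genes at 0.973 to 0.994 among these 4 libraries and at 0.258 to 0.266 with WT 2. Outside a stretch of a single chromosome, the counts of WT 2 did not follow the gene models. WT 2 is left out, and WT 3 is not analysed here. All 9 oocyte markers, Gdf9, Zp3 and Bmp15 among them, had counts in the 4 libraries and together took 19072 to 22125 CPM before TMM scaling, while 8 of the 9 had 0 counts in WT 2. Markers of granulosa or cumulus cells, 12 genes, summed to 65.1 CPM in WT 1 and to 84.8 to 97.6 CPM in the KO libraries, with Amh and Foxl2 at under 0.4 CPM in each. Within this list Cyp19a1 was at 14.2 CPM in WT 1 and 35.3 to 44.2 CPM in the KO libraries, and Ptgs2 at 0.0852 and 0.672 to 1.54 CPM. Nr5a2, the highest gene of the list, was at 43.3 and 36.8 to 48.2 CPM. Inhba and Kitl were also above WT 1 in every KO library, while Hsd17b1 and Foxl2 were below it in each. Blood markers, 6 genes, summed to 1.41 CPM in WT 1 and 1.53 to 4.92 CPM in the KO libraries, with the haemoglobin genes Hba-a1 and Hbb-bs at 0 counts. The theca, stromal and endothelial list of 8 genes summed to 16.1 CPM in WT 1 and 25.2 to 27.0 CPM in the KO libraries, with Col3a1 and Cdh5 at 0 counts. Most of that sum was Pecam1, at 14.9 CPM in WT 1 and 24.6 to 26.2 CPM in the KO libraries. No other gene of that list was above WT 1 in every KO library. The part of other cells in the values below was not tested. Pan2 itself stood at 77.5 CPM in WT 1 and 44.5, 11.9 and 34.0 CPM in the KO libraries, and its log2 difference of -1.37 (SE 0.53) missed the threshold (edgeR adjusted p = 0.301).

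Slc39a6 and Slc39a10 made up nearly all of the ZIP signal, and neither passed the test between genotypes. Together they supplied 96.0% of the CPM of the 5 ZIP genes in WT 1 and 97.7%, 99.1% and 95.3% in KO 1 to KO 3. The 5 genes summed to 495 CPM in WT 1 and 466 ± 35.9 CPM (SD, n = 3) for the KO libraries, and the KO values of 507, 445 and 446 CPM lay on both sides of WT 1. Among the 3 ZnT genes described Slc30a5 led, and their sum was 78.5 CPM in WT 1 and 78.7 ± 6.84 CPM (SD, n = 3) for the KO libraries. The metallothioneins summed to 0.752 CPM in WT 1 and 1.16 ± 0.33 CPM (SD, n = 3) for the KO libraries. Sums were not tested. These libraries hold bulk RNA primed at poly(A) tails, so fewer cells with a transcript, less RNA per cell and poorer priming of its tail cannot be told apart.

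**Figure D1:**
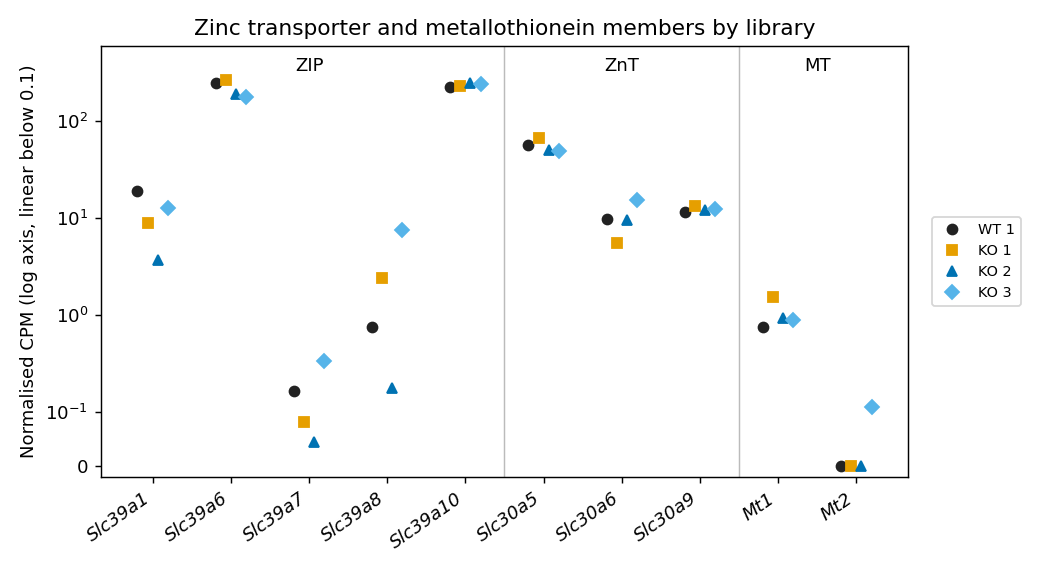
Normalised CPM of each gene in WT 1 and KO 1 to 3, on a log axis that is linear below 0.1, with 1 point per library and the ZIP, ZnT and metallothionein (MT) genes in separate blocks. Slc39a6 and Slc39a10 lie between 179 and 265 CPM in every library, while Mt2 is at 0 in 3 of the 4.

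Slc39a10 (ENSMUSG00000025986.6, chromosome 1, 46807544 to 46892852 in mm10, minus strand) encodes ZIP10, a plasma membrane importer. It stood at 228 CPM in WT 1 and at 231, 248 and 246 CPM in KO 1 to KO 3. All KO libraries were above WT 1, at 1.06 times on average, and the highest KO library was 1.08 times the lowest. The log2 value for KO over WT 1 was 0.08, with an SE of 0.30 (edgeR adjusted p = 0.937).

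Slc39a6 (ENSMUSG00000024270.11, chromosome 18, 24579881 to 24603817, minus strand) encodes ZIP6, the closest relative of ZIP10, with which it can form a complex. It stood at 247 CPM in WT 1 and at 265, 192 and 179 CPM in KO 1 to KO 3. KO 1 was slightly above WT 1 and the other KO libraries were below it, so the groups overlapped. The test gave a log2 value of -0.22 with an SE of 0.33 (edgeR adjusted p = 0.822). The ratio of Slc39a6 to Slc39a10 in CPM, which no scaling of the libraries can move, was 1.08 and 1.15 in WT 1 and KO 1 but 0.775 and 0.729 in KO 2 and KO 3. Other features divided the libraries in the same way: the ribosomal RNA gene CT010467.1 held 2.47% and 1.49% of counts in WT 1 and KO 1, against 0.554% and 0.565% in KO 2 and KO 3. Ribosomal protein genes, 89 by symbol, took 2.63%, 2.88%, 1.69% and 1.66%. Their part in the Slc39a6 values was not tested.

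**Figure D2:**
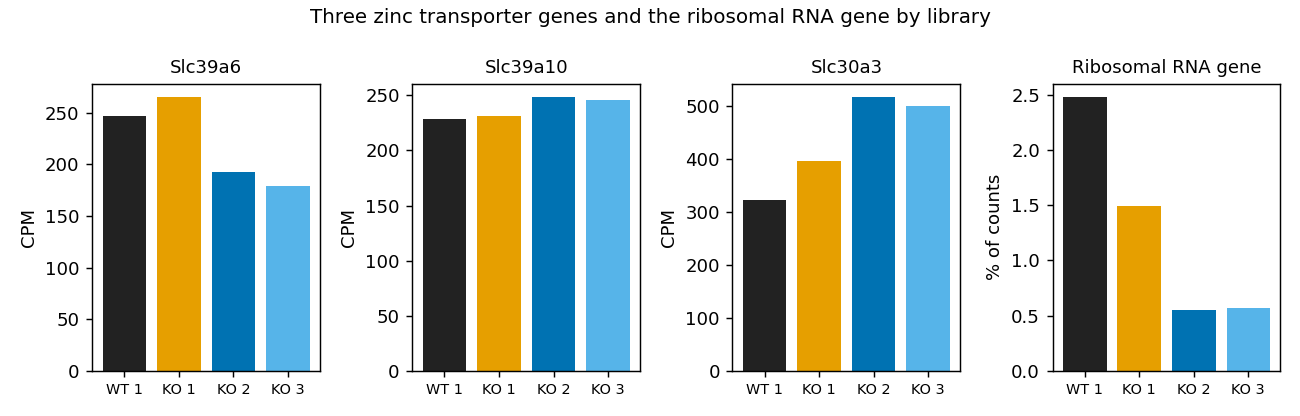
Bars give the normalised CPM of Slc39a6, Slc39a10 and Slc30a3 and the percentage of counts on the ribosomal RNA gene in WT 1 and KO 1 to 3, 1 bar per library, each axis from 0. Slc39a6 and the ribosomal RNA gene are lower in KO 2 and KO 3 than in WT 1 and KO 1, Slc30a3 is higher there, and Slc39a10 stays between 228 and 248 CPM.

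Slc39a1 (ENSMUSG00000052310.9, chromosome 3, 90248172 to 90253612, plus strand) encodes ZIP1, a widely expressed plasma membrane importer. It stood at 19.0 CPM in WT 1 and at 9.01, 3.71 and 12.8 CPM in KO 1 to KO 3. All KO libraries were below WT 1, and they differed among themselves by 3.46 times. The log2 fold change was -1.16 (SE 0.55), which did not pass (edgeR adjusted p = 0.403). Without KO 1 it passed (log2 fold change -1.19, adjusted p = 0.000611), in a fit in which 28.1% of all genes passed.

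Slc39a8 (ENSMUSG00000053897.15, chromosome 3, 135825279 to 135888572, plus strand) encodes ZIP8, an importer of zinc and manganese that also carries iron and cadmium. It was the most uneven of the 8 tested members across the KO libraries. It had 18 counts or 0.752 CPM in WT 1, and 30, 4 and 205 counts or 2.43, 0.179 and 7.66 CPM in KO 1 to KO 3. KO 3 exceeded KO 2 by 42.9 times, and WT 1 lay between them. The exact 95% Poisson intervals of KO 2 (0.0467 to 0.438 CPM before TMM scaling) and KO 3 (6.65 to 8.78 CPM) did not overlap. These intervals hold for counting error alone, since amplified reads are not independent molecules, and do not measure the spread between oocyte samples. The log2 fold change of 2.20 (SE 1.42) did not pass (edgeR adjusted p = 0.556). It passed without KO 2 (2.76, adjusted p = 0.0369) and without KO 1 (2.40, adjusted p = 0.000367). Without KO 3, the library where it was highest, it dropped to 0.71 (adjusted p = 0.978). Of all genes, 28.1% passed without KO 1 and 2.43% without KO 2.

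Slc39a7 (ENSMUSG00000024327.16, chromosome 17, 34028269 to 34031682, minus strand) encodes ZIP7, which releases zinc from the endoplasmic reticulum and Golgi. It was barely detected, with 4 counts in WT 1 and 1, 1 and 9 counts in KO 1 to KO 3. These are 0.167, 0.0811, 0.0447 and 0.336 CPM, close to the 0.112 to 0.249 CPM that 3 counts are worth in these libraries. It was too low to be tested, and no difference was detectable at this depth. It overlaps exons of Gm20427 on the same strand, which had 0 counts in the 4 libraries, and how reads in both genes were assigned is unknown here.

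Slc30a5 (ENSMUSG00000021629.10, chromosome 13, 100802648 to 100833427, minus strand) encodes ZnT5, which carries zinc into the early secretory pathway. It stood at 57.0 CPM in WT 1 and at 66.9, 50.7 and 49.7 CPM in KO 1 to KO 3. As for Slc39a6, KO 1 was above WT 1 and the other KO libraries below it. For KO over WT 1 the log2 value was -0.03 (SE 0.33, edgeR adjusted p = 0.978), and it lay just above 0 without KO 2 or without KO 3.

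Slc30a6 (ENSMUSG00000024069.14, chromosome 17, 74395608 to 74424221, plus strand) encodes ZnT6, the partner of ZnT5, which is thought not to carry zinc by itself. It stood at 9.86 CPM in WT 1 and at 5.52, 9.69 and 15.3 CPM in KO 1 to KO 3. WT 1 lay within the KO range, which spanned 2.78 times. The log2 value was 0.06 with an SE of 0.54 (edgeR adjusted p = 0.977), and it was below 0 without KO 3.

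Slc30a9 (ENSMUSG00000029221.15, chromosome 5, 67306955 to 67358443, plus strand) encodes ZnT9, known as a zinc exporter of mitochondria. It stood at 11.6 CPM in WT 1 and at 13.6, 12.1 and 12.5 CPM in KO 1 to KO 3. All KO libraries were above WT 1, by little. On the log2 scale the difference was 0.13 (SE 0.38, edgeR adjusted p = 0.919).

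Mt1 and Mt2 lie 5513 bases apart on chromosome 8, with Mt3 and Mt4 in the same cluster of 43131 bases, all on the plus strand. Mt1 (ENSMUSG00000031765.8, 94179082 to 94180327) had 18 counts in WT 1 and 19, 21 and 24 counts in KO 1 to KO 3. In CPM these are 0.752 in WT 1 and 1.54, 0.938 and 0.897 in the KO libraries. All KO libraries were above WT 1, and the log2 fold change of 0.55 (SE 0.76) did not pass (edgeR adjusted p = 0.805). The exact 95% Poisson interval of WT 1 (0.454 to 1.21 CPM before TMM scaling) overlapped those of all KO libraries, but it did not hold the value of KO 1, 1.58 CPM before scaling. Mt2 (ENSMUSG00000031762.7, 94172664 to 94173568) had 0 counts in WT 1, KO 1 and KO 2 and 3 counts in KO 3. Taken as 3 counts, the limit that a count of 0 allows is 0.128 CPM in WT 1, 0.249 CPM in KO 1 and 0.128 CPM in KO 2. The upper ends of the exact 95% Poisson intervals are 0.157, 0.306 and 0.158 CPM. KO 3 stood at 0.112 CPM. Mt2 was too low to be tested. Its exons overlap those of Gm45774 on the opposite strand, which had 1 count in KO 2 and 0 in the other 3 libraries.

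Of the 10 genes, 8 passed the filter on low counts, and 0 of these 8 rose or fell at the adjusted threshold, in edgeR, in DESeq2 and in limma-voom (4.58% of the genes with an adjusted p passed in DESeq2 and 1.29% in limma-voom). Before adjustment, p was under 0.05 for 0 of the 8 in edgeR and DESeq2 and for 1 in limma-voom, beside 13.3%, 12.3% and 14.6% of all genes. Of all 17799 genes tested, 1.93% passed (344 genes, 1.32% higher and 0.612% lower in KO oocytes). In simulated counts, edgeR recovered 16% of genes with a true log2 change of 1 and 82% of those with 2. A count of 0 members passing thus does not show that their levels were equal. The median log2 fold change of the 8 genes was 0.07, beside 0.02 over all genes tested. In 4 of the 8 the KO libraries lay all on one side of WT 1, 3 above and 1 below, which also held for 58.3% of all genes tested (29.1% above, 29.2% below). 

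**Figure D3:**
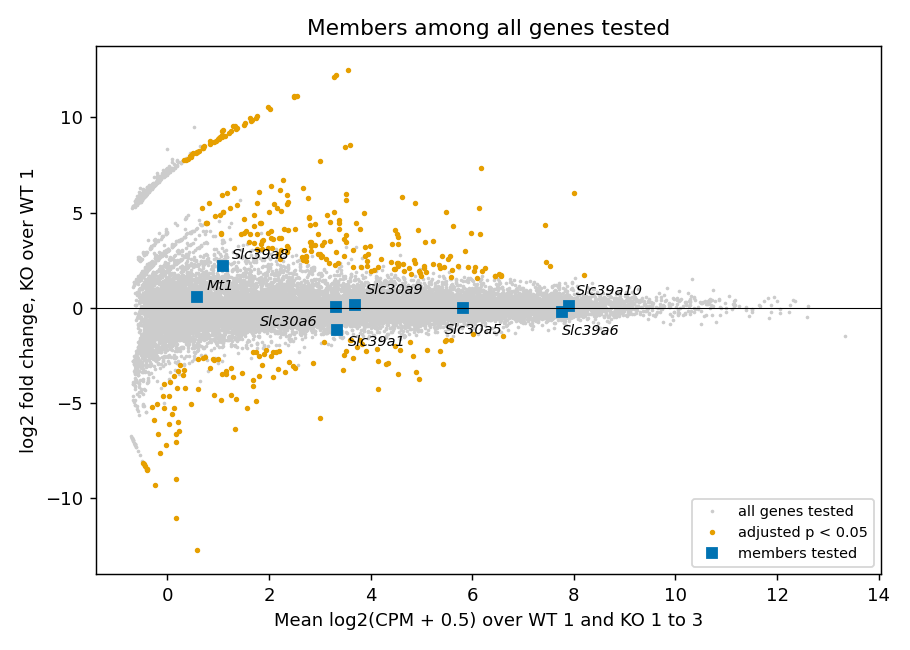
Each point is a gene, with its mean log2(CPM + 0.5) over the 4 libraries against its log2 fold change in KO over WT 1, genes past an adjusted p of 0.05 in orange and the 8 tested members as blue squares. Slc39a8 (2.20) and Slc39a1 (-1.16) lie farthest from 0 of the squares, and 0 of the squares passed.

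Levels of different genes were compared per length, as RPKM, the depth-scaled count divided by the length of all exons, with the same TMM factors. Slc39a6 was highest of the 10, at 44.0 to 65.0 RPKM over the 4 libraries, followed by Slc39a10 at 37.5 to 40.7 RPKM, with ranges that did not overlap. Among all 28291 genes with a count in these libraries they stood at the 95.6 and 94.0 percentile. Slc30a5 followed at 6.81 to 9.18 RPKM, Slc39a1 at 1.57 to 8.04 and Slc30a6 at 1.79 to 4.98, and the range of Slc39a1 overlapped both others. Slc30a9 at 0.938 to 1.10, Mt1 at 0.603 to 1.24 and Slc39a8 at 0.0233 to 1.00 RPKM overlapped one another. Slc39a7 reached 0.130 and Mt2 0.191 RPKM at most, and their ranges overlapped too. The exon lengths join all transcripts of a gene, which lowers the RPKM of genes with long alternative exons. With the longest coding transcript as the length, the mean of Slc30a5 went from 7.69 to 17.6 RPKM and that of Slc30a9 from 1.01 to 2.18. The mean of Slc39a8 went from 0.360 to 0.780.

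**Figure D4:**
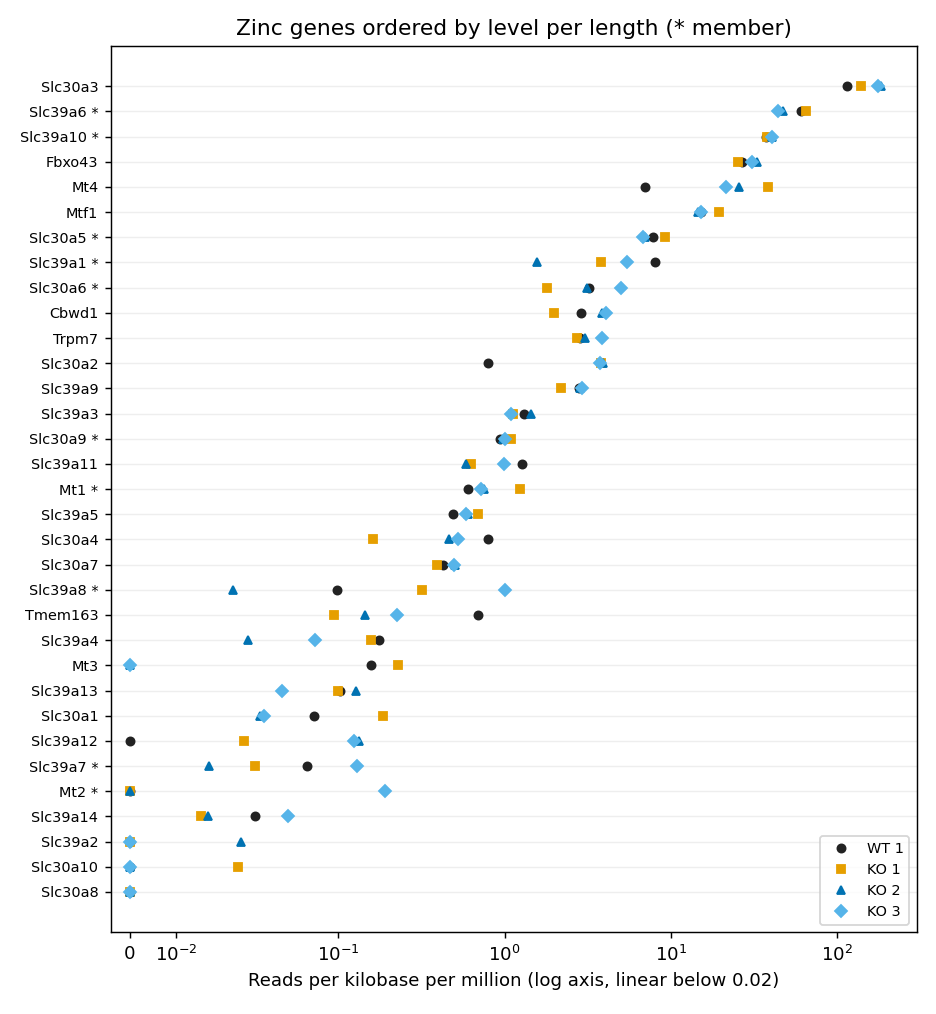
RPKM of all 33 zinc genes in WT 1 and KO 1 to 3, on a log axis that is linear below 0.02, ordered by the mean of the 4 libraries, with 1 point per library and an asterisk at the 10 members. Slc30a3 leads, Slc39a6 and Slc39a10 follow, and Mt2 is among the lowest.

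The other zinc genes, 23 in all, comprised the rest of the ZIP and ZnT families, Mt3, Mt4, Mtf1 and genes of zinc handling or of zinc-dependent egg arrest. Of these, 18 could be tested, and 1 rose and 0 fell, beside 1.32% higher and 0.612% lower over all genes tested. Their log2 fold changes ran from -2.10 to 2.26, with a median of 0.12. The ZnT gene with the highest level per length was not among the 10: Slc30a3, whose product ZnT3 is known for loading zinc into synaptic vesicles of neurons, stood at 114 to 182 RPKM, above Slc39a6 in every library. Per length it exceeded Slc30a5 by 14.6 times in WT 1 and by 15.2, 26.2 and 25.9 times in KO 1 to KO 3. With the longest coding transcript as the length, these ratios were 8.62, 9.02, 15.5 and 15.3. Its CPM was 323 in WT 1 and 397, 517 and 500 in the KO libraries, all above WT 1, and the log2 fold change of 0.55 (SE 0.33) did not pass (edgeR adjusted p = 0.518). It passed without KO 1 (0.66, adjusted p = 0.00193), in a fit in which 28.1% of all genes passed.

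Slc30a2 was the zinc gene that rose. Its product ZnT2 fills secretory vesicles with zinc and is known for zinc transfer into milk. It stood at 2.84 CPM in WT 1 and at 13.6, 13.9 and 13.3 CPM in KO 1 to KO 3, so the KO libraries were 4.80 times WT 1 on average and lay within 1.05 times of each other. This gave a log2 value of 2.26 with an SE of 0.45 (edgeR adjusted p = 0.0333). The call held in 10 of 16 alternatives, among them DESeq2, limma-voom and the fits without KO 1 or without KO 3. With WT 2 included it was lost (edgeR log2 value 3.19, adjusted p = 0.958), also with the replicate number as a block (4.73, adjusted p = 0.992). In both of these fits 0 of 16738 genes passed, so the call could not hold in them. It was lost without KO 2 (2.24, adjusted p = 0.0507) and at a threshold of 0.01. The same held among genes of at least 5 CPM (2.23, adjusted p = 0.0648) and with counts thinned to the smallest library (2.03, adjusted p = 0.0732). The granulosa and cumulus sum and the theca, stromal and endothelial sum, given above, were likewise higher in every KO library than in WT 1. Genes of the first list went both ways, and the second sum was mostly Pecam1. The part of other cells in the Slc30a2 difference was not tested.

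Among the metallothioneins, Mt4 had the most counts in every library. It is known from stratified squamous epithelia. It stood at 2.80 CPM in WT 1 and at 15.3, 10.3 and 8.56 CPM in the KO libraries, all above WT 1. Its log2 fold change of 2.02 (SE 0.53) did not pass (edgeR adjusted p = 0.102). It passed in DESeq2 (adjusted p = 0.00575), where 4.58% of the genes with an adjusted p passed. Without a filter on low counts it passed too (0.0118, where 3.07% of all genes did). So it did without KO 1 (0.000122, where 28.1% of all genes passed) and without KO 3 (0.0335, where 2.89% did). These 4 were the only ones of 16 alternatives in which it passed, and limma-voom was not among them. Per length Mt4 stood at 7.03 to 38.5 RPKM, above Mt1 in every library. Mt3, a metallothionein of the brain, was at 0 to 0.243 CPM.

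Mtf1, the gene of the factor that activates Mt1 and Mt2, was well detected, at 135 CPM in WT 1 and 173, 130 and 136 CPM in the KO libraries (log2 fold change 0.11, SE 0.32, edgeR adjusted p = 0.915). In RPKM it ran from 14.6 to 19.4, above every value of Mt1 and Mt2. It overlaps exons of 1110065P20Rik on the opposite strand, and the strand setting of the counting is unknown here. Fbxo43, whose product EMI2 binds zinc and keeps the egg in meiotic arrest, had 108 CPM in WT 1 and, averaged over the KO libraries, 120 ± 15.3 CPM (SD, n = 3) (edgeR adjusted p = 0.877). Trpm7, a divalent cation channel gene, was at 32.3 and 36.3 ± 6.35 CPM, and Slc39a9, a ZIP gene that overlaps exons of the far more abundant Erh on the opposite strand, at 28.4 and 27.0 ± 4.18 CPM. Cbwd1, the gene of a zinc chaperone, was at 8.39 and 9.62 ± 3.36 CPM, Slc39a3, a plasma membrane importer gene, at 5.26 and 4.92 ± 0.77 CPM, and Slc30a7, a Golgi ZnT gene, at 4.72 and 5.17 ± 0.684 CPM. None of these 5 passed, with edgeR adjusted p from 0.877 to 0.955. The remaining 13 genes of the list had means from 0 to 2.93 CPM, and Slc30a8 had 0 counts in all 4 libraries.

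**Figure D5:**
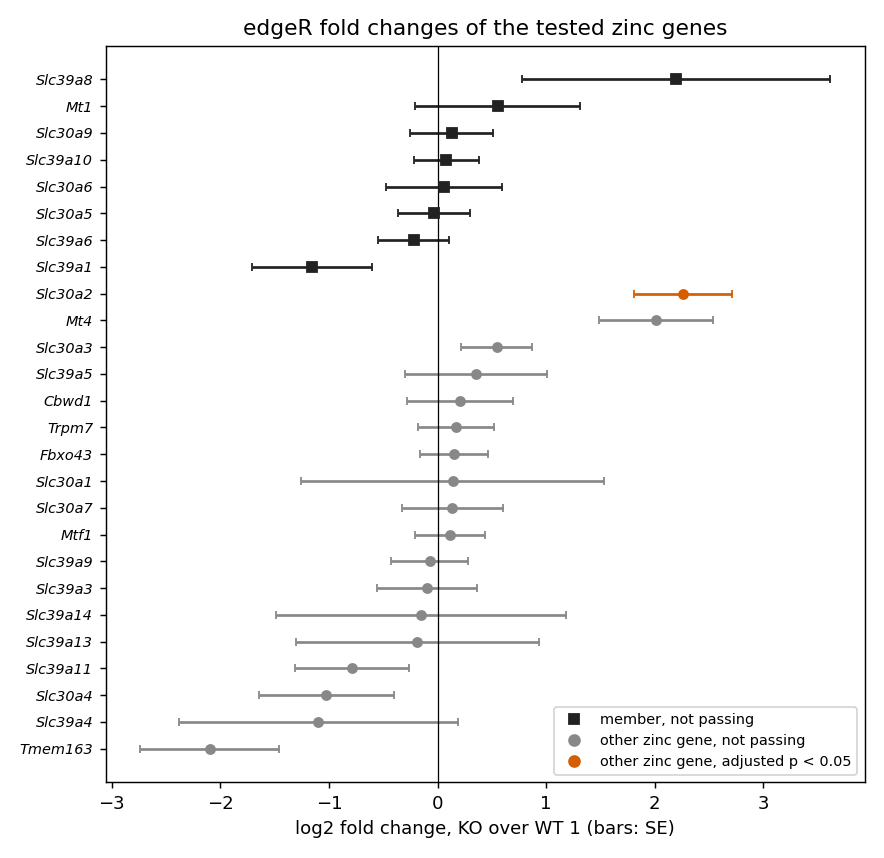
Points give the edgeR log2 fold change of KO over WT 1 and bars its SE for the 26 tested zinc genes, members as squares and the other zinc genes as circles. Slc30a2 (2.26) is the gene in orange that passed, and the squares run from -1.16 for Slc39a1 to 2.20 for Slc39a8.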

How the data were processed

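Polyadenylated RNA of full-grown mouse oocytes was primed with oligo(dT), amplified by Smart-seq2 and sequenced in paired-end mode, per the labels' protocols. The submitters' processing notes name Trim Galore 0.6.7, STAR 2.7.10a, featureCounts 2.0.2, DESeq2 (no version) and the build mm10. Not given in the sources used here are the annotation release, the strand setting and how reads mapping to several places were treated. Unnormalized gene counts were deposited, in 5 library columns for the 6 labelled samples. Groups came from the sample titles. Gene coordinates are those of the deposited table and were identical to GENCODE M21 for all 33 zinc genes; identifiers came from that annotation.

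CPM, RPKM, fold changes and p-values were computed here. The test was edgeR 4.0.16 in R 4.3.3 (TMM, filterByExpr, glmQLFit with robust=TRUE), with Benjamini-Hochberg adjustment, on WT 1 against the 3 KO libraries. SE is the log2 fold change divided by the square root of F. DESeq2 1.42.0 and limma 3.58.1 (voom) were alternatives, beside other scalings, filters and thresholds, thinning, a replicate block and leaving out each KO library. Steps were tested on simulated data with 200 changed genes, all of at least 5 CPM. The edgeR fit recovered 16% of those with a true log2 change of 1 and 82% of those with 2. Recovered means an adjusted p under 0.05 in the right direction. It also called 9 unchanged genes. Python 3.11.15, SciPy 1.17.1 and matplotlib 3.10.9 were used for intervals and figures. Named by rule were all 10 members, other zinc genes with a mean of at least 5 CPM or an adjusted p under 0.05, and the checks Pan2, Gdf9, Zp3 and Bmp15. Outside this rule, Mt3, Slc30a8, some markers of other cells and, for their counts in WT 2, Slc39a11 and Slc39a13 were named. Members, lists and tests were chosen with earlier results of these data known.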

Additional observations from a re-analysis of the deposited data

Results flagged for a closer look

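The library WT 2 was not used in the comparisons, and 4 zinc genes had more CPM there than in any of the other 4 libraries, beyond the exact Poisson interval. Slc39a11 stood at 2275 CPM in WT 2 and at 4.39 CPM at most in the others. Slc39a3 stood at 109 CPM against 5.57 at most, Slc39a13 at 34.3 CPM against 0.599 at most, and Fbxo43 at 160 CPM against 127 at most. Outside part of chromosome 16, WT 2 did not follow the gene models, so the source of these counts is uncertain. Of the 10 members, 4 had 0 counts in WT 2, and the highest, Slc39a10, had 61 counts. None of the members lies on chromosome 16.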

How the results depend on the processing

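Against WT 1 the count of genes passing was 344; it was 688 with DESeq2, 229 with limma-voom, 868 without a filter, 126 at a mean of at least 5 CPM, and 131 and 545 at thresholds of 0.01 and 0.1. Leaving out 1 KO library gave 425 to 4923 genes. Members passing were 0 in every setting except when a KO library was left out (0 to 2). Other zinc genes passing were 1, and 2 with DESeq2 and without a filter, 0 at 5 CPM, 0 at a threshold of 0.01, 0 after thinning, and 0 to 4 when a KO library was left out. With both WT libraries 0 genes and 0 other zinc genes passed in edgeR (1050 genes and 0 members had an unadjusted p under 0.05; 1049 genes, 0 members and 3 other zinc genes passed in DESeq2, and 0 genes in limma-voom), and the median of all genes moved by 0.66. There the log2 fold changes of Slc39a6, Slc30a5, Slc39a9 and Fbxo43 turned to 0.78, 0.95, 0.92 and -0.0053. With the replicate number as a block, which needs both WT libraries, 0 genes and 0 other zinc genes passed in edgeR (1 gene at an unadjusted p under 0.05), and Slc39a1, Slc39a6, Slc30a5, Slc39a9 and Fbxo43 turned to 2.01, 4.30, 3.16, 3.86 and -0.038. The labels do not say that a number marks shared material. The deviations of same-numbered libraries from their group means (r = 0.0169 and -0.00603 over 14671 genes) depend on WT 2 and so cannot show whether the numbers pair the libraries. Slc30a6 turned to -0.00056 with limma-voom and -0.042 after thinning. Leaving out a KO library gave ranges of 0.71 to 2.76 for Slc39a8, -0.18 to 0.041 for Slc30a5, -0.36 to 0.35 for Slc30a6, -0.15 to 0.054 for Slc39a9 and -0.018 to 0.18 for Mtf1. The cause of these changes was not tested. Slc39a7 and Mt2 were too low to be tested in any fit but the one without a filter.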
